A study of Mus musculus with 14 samples.

Results

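Csf1r, the receptor of colony stimulating factor 1, and the genes of its 2 ligands, Csf1 and Il34, were examined as 3 genes among the 42687 counted in the retinal pigment epithelium (RPE) of mice with and without Clic4. Csf1r was selected on these data, because it stayed abundant in every library from KO mice while other myeloid transcripts were lower there, and its ligands were taken with it. The values of Csf1r, of the myeloid transcript Lyz2 and of other myeloid genes in KO against control libraries are therefore given as a description, without a test. The levels of Csf1 and Il34 were not used in the choice. Each library came from the RPE of both eyes of 1 male C57BL/6J mouse at 3 months of age, with 14 mice in all. In KO mice (Best1-Cre+/-;Clic4f/f), Cre under the Best1 promoter, which is active in RPE, recombines the floxed Clic4 alleles in those cells. The controls were WT mice with neither transgene nor floxed allele, Ctrl mice with floxed alleles and no Cre (Clic4f/f) and CreCtrl mice with Cre and no floxed allele (Best1-Cre+/-). The libraries form 3 sets with none in common, of 3 KO and 3 WT mice, 2 KO and 2 Ctrl mice, and 2 KO and 2 CreCtrl mice. Control genotype and set therefore cannot be told apart.

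Csf1r is a receptor tyrosine kinase of class III that sits on monocytes, macrophages and microglia, which depend on it for survival and differentiation. Colony stimulating factor 1, made by fibroblasts, endothelium and other stromal cells, and interleukin 34, made by keratinocytes and neurons, both bind it and act through partly different additional receptors. The RPE lines the outer retina next to the choroid, whose stroma holds fibroblasts, vessels, melanocytes and resident macrophages, so that RNA of those cells can accompany an RPE preparation.

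Total counts ran from 9828293 to 32384166 a library. Clic4, the targeted gene, had 62.1 to 230 CPM (counts scaled to a common library size, with TMM factors over the 14 libraries) in controls and 9.78 to 33.9 CPM in KO libraries. All 10 RPE markers had counts in every library, although Best1, the gene whose promoter drives Cre, stood at only 1.19 to 5.94 CPM. Summed over 10 genes, RPE markers had 74409 to 85253 CPM in KO libraries, against 16791 to 24147 CPM in WT and 48605 to 59721 CPM in the other controls. Fibroblast markers had 123 to 796 CPM in KO libraries and 1305 to 8769 CPM in controls. Myeloid markers had 387 to 2960 CPM in controls and 45.4 to 271 CPM in 6 KO libraries, while KO replicate 2 of the Ctrl set stood apart with 2124 CPM. Ctrl replicate 2 also stood apart, with 310 CPM of Sdc1, which lay at 52.2 CPM or below in the other libraries. Genes with an adjusted p (Benjamini-Hochberg, edgeR's quasi-likelihood test) under 0.05 and a fold change above 1.5 were called. Scaling by library size alone put the median log2 fold change over genes at -0.32 for KO vs. WT, -0.11 for KO vs. Ctrl and -0.24 for both KO vs. CreCtrl and the fit over the 3 sets. Genes called higher and lower were then 1417 and 3585 in KO vs. WT (2171 and 2716 with TMM), 176 and 2694 in KO vs. CreCtrl (552 and 1946) and 669 and 3403 over the 3 sets (1641 and 2507).

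Csf1r (ENSMUSG00000024621; GRCm38 chr18:61100598-61132149, plus strand, 24 exon blocks) was among the abundant transcripts of every library. It had 485, 489 and 508 CPM in WT mice and 772, 836 and 740 CPM in KO mice of the same set, from 5681 to 20490 counts a library over the whole series. In the Ctrl set it had 581 and 450 CPM in Ctrl and 766 and 695 CPM in KO libraries. In the CreCtrl set it had 614 and 557 CPM in CreCtrl and 743 and 712 CPM in KO libraries. Every KO library lay above every control library, also across sets, and the KO libraries differed little from each other. The share of all genes that separate KO from control libraries is not given here, nor for the separations described below. The ratio of KO to control means was 1.58 (WT set), 1.42 (Ctrl set) and 1.24 (CreCtrl set). In order of mean level Csf1r went from KO of the WT set (783 CPM, SD 48.7, n = 3) over KO of the Ctrl set (731 CPM, SD 50.2, n = 2) and KO of the CreCtrl set (727 CPM, SD 21.5, n = 2) to CreCtrl (586 CPM, SD 40.6, n = 2), Ctrl (516 CPM, SD 92.3, n = 2) and WT (494 CPM, SD 12.6, n = 3), and of these neighbours only the last KO group and CreCtrl did not overlap. How far the groups stand apart depended on the scaling. With RLE factors all 7 KO libraries again lay above all controls, while with library size alone 5 of 7 did, the lowest KO library at 633 CPM and the highest control at 646 CPM. In bulk RNA, more cells of a type and more RNA per cell cannot be told apart, and the same holds for fewer cells and less RNA.

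**Figure D1:**
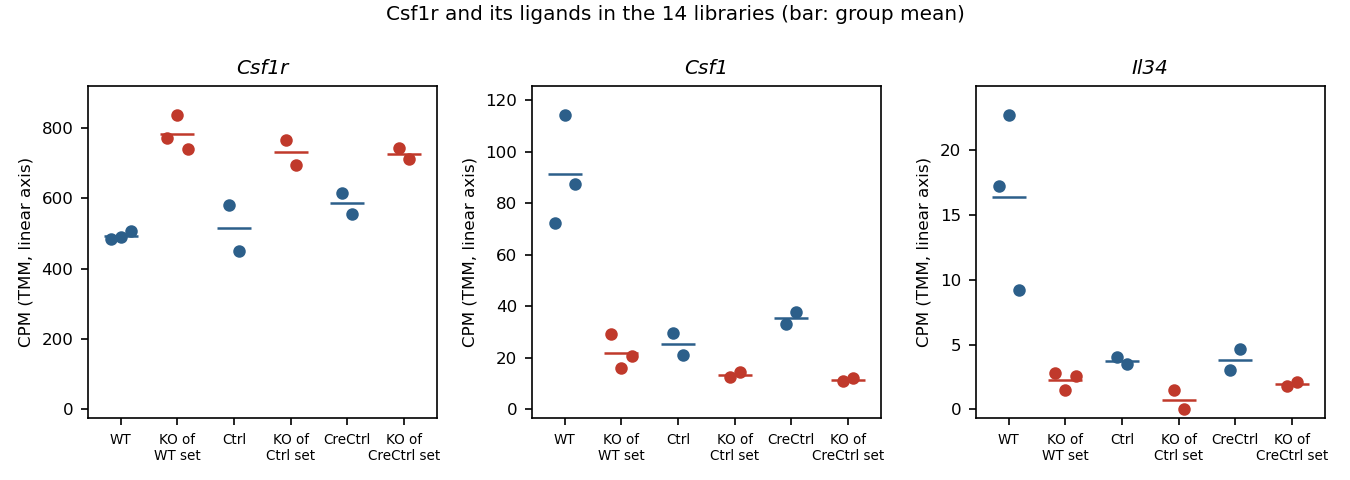
Levels of Csf1r, Csf1 and Il34 in CPM (linear axis) in each of the 14 libraries, with control groups in blue, KO groups in red and a bar at each group mean. All KO libraries lie above all controls for Csf1r (695 to 836 against 450 to 614 CPM) and below all controls for Il34, and the WT mice stand above all others for both ligands.

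Lyz2, the lysozyme gene of macrophages and neutrophils (ENSMUSG00000069516; chr10:117277331-117282321, minus strand, 4 exon blocks), is set beside Csf1r per length of exon, as reads per kilobase (RPKM, the TMM-scaled CPM divided by the kilobases of merged exons). Lyz2 had 465, 1121 and 699 RPKM in WT and 92.1, 23.6 and 31.1 RPKM in KO libraries of that set. It had 376 and 245 RPKM in Ctrl and 41.7 and 1041 RPKM in KO libraries, and 145 and 328 RPKM in CreCtrl and 6.34 and 22.5 RPKM in KO libraries. Lyz2 was thus lower in 6 of the 7 KO libraries than in any control, and KO replicate 2 of the Ctrl set was the exception. Csf1r ran from 78.0 to 106 RPKM in controls and from 120 to 145 RPKM in KO libraries. Between the highest and the lowest of the 14 libraries Lyz2 differed 177-fold and Csf1r 1.86-fold. The RPKM ratio of Csf1r to Lyz2 was 0.0755 to 0.733 in controls, 1.45 to 20.3 in 6 KO libraries, and 0.116 in KO replicate 2 of the Ctrl set. In that last library, where Lyz2 was as abundant as in WT mice, Csf1r stood at 120 RPKM, the lowest of the 7 KO libraries. Reads shared between Lyz2 and its close paralogue Lyz1 may have been divided between them or dropped by the authors' counting.

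Among 42329 genes ranked by RPKM, Csf1r held rank 247 to 322 in KO libraries and 298 to 516 in controls. Lyz2 held rank 13 to 199 in controls and 25 to 6158 in KO libraries. Spi1, which encodes the macrophage transcription factor PU.1, had 1.53 to 12.1 RPKM in controls, 0.352 to 0.959 RPKM in 6 KO libraries and 7.17 RPKM in KO replicate 2 of the Ctrl set. Of 18 myeloid markers together with Spi1, 0 had a KO to control ratio of means above that of Csf1r with WT as control, 1 with Ctrl, namely Lyz2, and 0 with CreCtrl. The median ratio of these 19 genes was 0.0801, 0.804 and 0.146 in the same order. None of the 18 markers was at 0 counts in every KO library, but Itgam, Aif1, Cx3cr1, Ccr2, Cd163, Pf4 and Lyve1 were at 0 in some library. The 6 microglia markers, of which P2ry12, Siglech, Sall1 and Gpr34 were at 0 in some library, summed to 2.89 to 14.02 CPM in KO libraries and 12.5 to 162 CPM in controls.

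**Figure D2:**
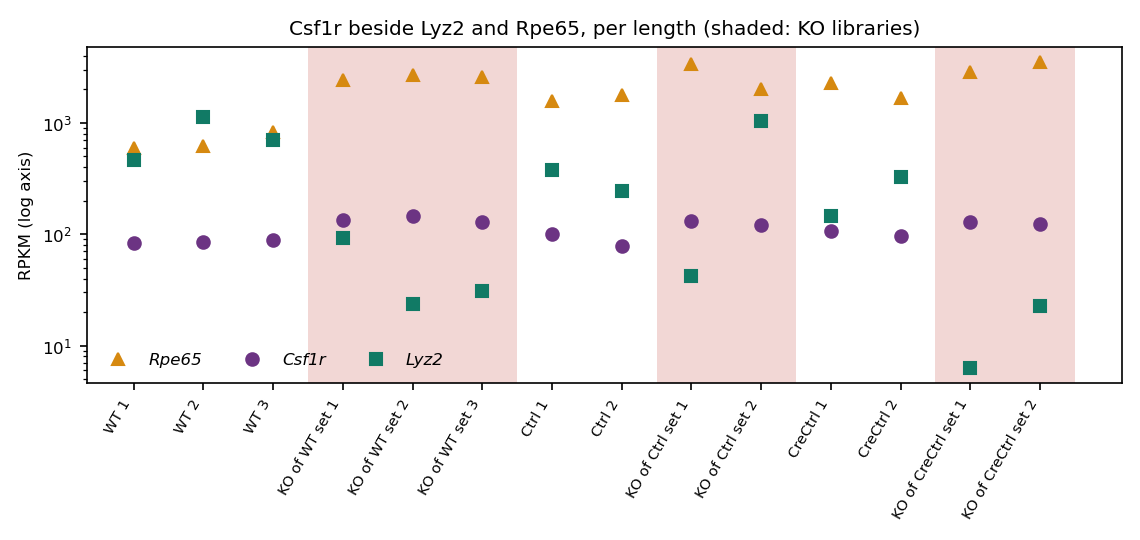
RPKM (log axis) of Rpe65 (triangles), Csf1r (circles) and Lyz2 (squares) in each library, with KO libraries shaded. Csf1r stays between 78.0 and 145 RPKM in all 14 libraries while Lyz2 runs from 6.34 to 1121 RPKM.

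Csf1r was higher in KO libraries, as most RPE markers were, by a smaller ratio than most of them. Rpe65, which encodes the isomerase of the visual cycle, had 593 to 821 RPKM in WT, 1579 to 2296 RPKM in the other controls and 2033 to 3506 RPKM in KO libraries. Of the 10 RPE markers, 9 had a KO to control ratio above that of Csf1r against WT (median 3.32, range 0.310 to 7.24), 7 did against Ctrl (median 1.497, range 1.05 to 1.69) and 8 against CreCtrl (median 1.46, range 0.473 to 2.45). Per 1000 CPM of the summed RPE markers, Csf1r had 8.84 to 10.3 CPM in KO libraries, 9.25 to 11.9 CPM in Ctrl and CreCtrl and 21.1 to 28.9 CPM in WT libraries. The KO range thus overlapped those of Ctrl and CreCtrl, and WT stood above them all. Per CPM of the summed myeloid markers, Csf1r had 0.165 to 1.59 CPM in controls, 2.85 to 16.4 CPM in 6 KO libraries and 0.327 CPM in KO replicate 2 of the Ctrl set.

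**Figure D3:**
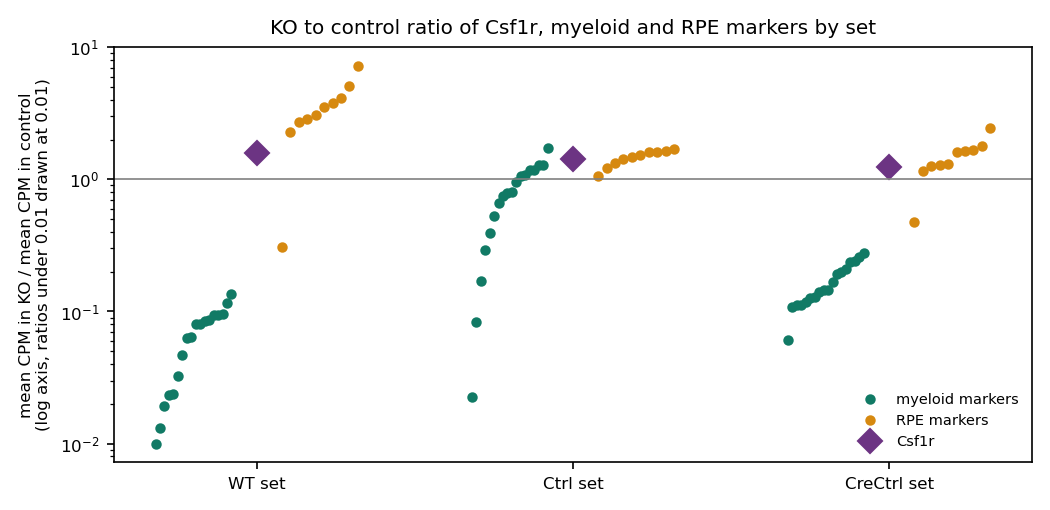
Ratio of the mean CPM in KO to that in control libraries (log axis) in each set for Csf1r (diamond), 18 myeloid markers (green) and 10 RPE markers (orange). Csf1r lies at 1.58, 1.42 and 1.24, above all myeloid markers except Lyz2 in the Ctrl set. In the WT set it lies below 9 of the 10 RPE markers, all except the scarce Best1 (0.310). In the Ctrl and CreCtrl sets it lies within their range, below 7 and 8 of the 10.

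Csf1 encodes colony stimulating factor 1, the first ligand known for the receptor (ENSMUSG00000014599; GRCm38 chr3:107741048-107760469, minus strand, 12 exon blocks). The start region of the gene is shown because transcripts of Csf1, unlike those of its receptor, were fewer in KO mice. It covers chr3:107760420-107760719 on the minus strand (RefSeq, GRCm38.p6), from 250 bases before to 50 bases after the start. The capitals mark the letters GGAAAGTCCC, which lie 154 to 145 bases before the start and read GGGACTTTCC, a κB-type motif, on the other strand.
Csf1 start region: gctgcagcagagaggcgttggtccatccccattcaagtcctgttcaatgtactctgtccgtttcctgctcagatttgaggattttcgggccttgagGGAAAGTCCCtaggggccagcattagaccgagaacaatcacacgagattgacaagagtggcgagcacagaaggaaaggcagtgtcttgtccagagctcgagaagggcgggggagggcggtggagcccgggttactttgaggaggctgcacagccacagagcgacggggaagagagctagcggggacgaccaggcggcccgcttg
The motif was looked for on both strands after this sequence had been read, and 51 of 32851 windows of the same kind (0.155%) hold it. The match is a description of the letters, not a binding site. The start region of Il34 is not shown here.

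Csf1 transcripts were fewer in KO than in control libraries of every set. Csf1 had 72.5, 114 and 87.4 CPM in WT and 29.4, 16.1 and 20.7 CPM in KO libraries of that set. It had 29.7 and 21.1 CPM in Ctrl and 12.7 and 14.4 CPM in KO libraries, and 33.3 and 38.0 CPM in CreCtrl and 11.0 and 12.2 CPM in KO libraries. The groups did not overlap in any set, and 6 of the 7 KO libraries lay below every control, the exception being KO replicate 1 of the WT set. Csf1 fell in KO vs. WT (log2 fold change -2.19, standard error 0.26, adjusted p = 0.000342 from edgeR), where 17.6% of 15428 genes were called lower. It also fell in KO vs. CreCtrl (-1.65, standard error 0.19, adjusted p = 0.00489 from edgeR), where 12.2% of 15963 genes were called lower. In KO vs. Ctrl the log2 fold change of -0.91 (standard error 0.31) did not pass (adjusted p = 0.303 from edgeR). In that comparison edgeR called 0% of 15287 genes, with 1846 genes at an unadjusted p under 0.05, while DESeq2 called 1111. Over the 3 sets, fitted together with the set as covariate, Csf1 fell by 1.64 on the log2 scale (standard error 0.20, adjusted p = 8.41e-05 from edgeR), where 16.8% of 14925 genes were called lower. Without KO replicate 2 of the Ctrl set the value was -1.72, and without Ctrl replicate 2 it was -1.78, both called.

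Il34, the gene of interleukin 34 (ENSMUSG00000031750; GRCm38 chr8:110741829-110805924, minus strand, 9 exon blocks), was the scarcest of the 3 genes, with 0 to 263 counts a library. It had 17.2, 22.6 and 9.18 CPM in WT and 2.79, 1.47 and 2.61 CPM in KO libraries of that set. It had 4.02 and 3.49 CPM in Ctrl and 1.5 and 0 CPM in KO libraries, and 3.04 and 4.63 CPM in CreCtrl and 1.82 and 2.09 CPM in KO libraries. The 0 in KO replicate 2 of the Ctrl set allows up to 3 counts, or 0.166 CPM, a limit of counting error only. All 7 KO libraries lay below all 7 controls, although the gap in the CreCtrl set was small and the share of all genes that separate so is not given. In order of mean level, CreCtrl (3.84 CPM, SD 1.13, n = 2) and Ctrl (3.75 CPM, SD 0.37, n = 2) overlapped, as did KO of the WT set (2.29 CPM, SD 0.72, n = 3) and KO of the CreCtrl set (1.95 CPM, SD 0.19, n = 2). WT (16.4 CPM, SD 6.77, n = 3) stood above all other groups. KO of the Ctrl set had the lowest mean (0.75 CPM, SD 1.06, n = 2) and lay below KO of the CreCtrl set, its neighbour in the order, but overlapped KO of the WT set. Il34 fell in KO vs. WT (log2 fold change -2.96, standard error 0.47, adjusted p = 0.00151 from edgeR). The log2 fold changes in KO vs. Ctrl (-2.33, standard error 1.44, adjusted p = 0.69 from edgeR) and KO vs. CreCtrl (-1.0, standard error 0.42, adjusted p = 0.125 from edgeR) did not pass. The value against Ctrl moved with the KO libraries kept and was -1.32 without KO replicate 2. Without KO replicate 1 it was -9.21, fitted to a lone library at 0 counts and no bound. Over the 3 sets Il34 fell by 2.197 on the log2 scale (standard error 0.56, adjusted p = 0.00679 from edgeR). It was again called without KO replicate 2 of the Ctrl set, at -1.96, and without Ctrl replicate 2, at -2.22. Short stretches of 22 and 75 exon bases overlap the antisense genes Gm15894 and Gm15895, and the strand setting of the authors' counting is not given in the sources used here.

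Like both ligands, the markers of fibroblasts and endothelium were mostly lower in KO libraries, while those of the other cells in the tissue were mixed. The 10 fibroblast markers, led by Dcn, Col1a2 and Col1a1, were all called lower in KO vs. WT (median log2 fold change -4.39, against -0.08 over all genes) and over the 3 sets (median -3.66, against 0.01). In KO vs. CreCtrl 9 of 10 were called lower (median -3.36), and in KO vs. Ctrl 0 of 10 (median -2.94). In that set all 10 lay below both Ctrl libraries in both KO libraries, without the share of all genes that do. All 10 had counts in every library. Of the endothelial markers, 8, 0, 8 and 10 of 10 were called lower against WT, Ctrl, CreCtrl and all controls, with sums of 43.5 to 178 CPM in KO libraries and 152 to 586 CPM in controls. Over all genes, 17.6%, 0%, 12.2% and 16.8% were called lower in these 4 comparisons, and 11% were called higher over the 3 sets. Of the pericyte and smooth muscle markers, 3, 0, 3 and 4 of 7 were called lower, with sums of 303 to 457 CPM and 475 to 2117 CPM, and Des was at 0 in some library. Cspg4 went the other way, above all controls in all 7 KO libraries, but barely (lowest KO 74.65 CPM, CreCtrl replicate 1 74.62 CPM). So did Acta2 within the WT and CreCtrl sets and Kcnj8 within the Ctrl and CreCtrl sets. Of the 7 melanocyte and Schwann cell markers, 5 had enough counts to be tested, 3 of them called lower and 1 higher over the 3 sets, and their sums were 711 to 1082 CPM in KO libraries and 551 to 820 CPM in controls. Among these, Ednrb and Pax3 were at 0 in some library. In KO vs. CreCtrl all 10 rod markers were called lower too, from sums of 1000 and 4727 CPM to 240 and 373 CPM, and Pde6b, Cnga1 and Rp1 were at 0 in some library. In the other sets the rod sums overlapped. They were 120 to 1861 CPM in KO and 27.7 to 1415 CPM in control libraries of the WT set. In the Ctrl set they were 1782 to 1865 CPM in KO and 360 to 1932 CPM in control libraries. The part of these cells in the differences of Csf1 and Il34 was not tested.

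Across the 14 libraries, log2 CPM of Csf1 had r = 0.941 with the log2 sum of the fibroblast markers, 0.674 among the 7 KO and 0.953 among the 7 control libraries. For Il34 the same values were 0.760, 0.0886 and 0.929. For Csf1r and the RPE sum they were 0.832, 0.478 and 0.570, and for Csf1r and the myeloid sum -0.743, -0.361 and -0.429. The points share their libraries, their scaling and, over all 14, the KO contrast on which Csf1r was chosen, so that these values describe the libraries and are given without a p.

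**Figure D4:**
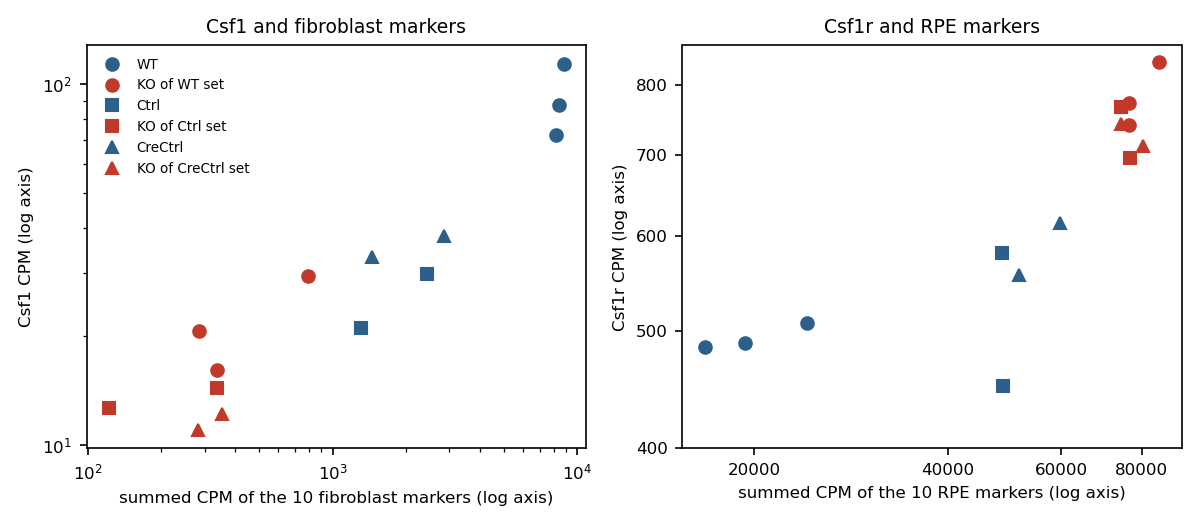
Left, Csf1 against the summed CPM of 10 fibroblast markers, and right, Csf1r against the summed CPM of 10 RPE markers, each point 1 library on log axes, with controls in blue, KO in red and a symbol for each set. WT libraries hold the highest fibroblast sums (8202 to 8769 CPM) and the highest Csf1, and KO libraries the highest RPE sums and the highest Csf1r.

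Compared per length, the ligands stood far below their receptor. Csf1 had 13.7 to 21.6 RPKM in WT, 3.99 to 7.19 RPKM in the other controls and 2.08 to 5.56 RPKM in KO libraries. Il34 had 4.69 to 11.6 RPKM in WT, 1.55 to 2.37 RPKM in the other controls and 0 to 1.42 RPKM in KO libraries. In each library the order was Csf1r, Csf1 and then Il34. The RPKM ratio of Csf1r to Csf1 was 3.92 to 6.12 in WT, 13.4 to 19.5 in the other controls and 24.0 to 61.8 in KO libraries. The 3 ranges did not overlap. By rank, Csf1 lay between 2052 and 9713 and Il34 between 3912 and 17822 of 42329 genes.

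Whether the balance of the 2 ligands changed was tested on the ratio of Il34 to Csf1 within each library, which needs no scaling between libraries. On the log2 RPKM scale with a pseudocount of 0.5 counts, it was -0.64, -0.90 and -1.82 in WT and -1.95, -1.998 and -1.54 in KO libraries of that set. It was -1.45 and -1.16 in Ctrl and -1.62 and -7.49 in KO libraries, and -2.01 and -1.59 in CreCtrl and -1.15 and -1.11 in KO libraries. KO libraries had the lower mean in the WT and Ctrl sets and the higher mean in the CreCtrl set, and the lowest value belongs to the library with 0 counts of Il34. The mean difference over the sets was -1.10 (sets -0.71, -3.25 and 0.67), with p = 0.358 in a two-sided exact permutation test of labels within sets, whose smallest possible p is 0.00278. Without KO replicate 2 of the Ctrl set the difference was -0.12 (p = 0.625, two-sided exact permutation test).

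The control genotypes were compared with each other in a fit of all 14 libraries as 6 groups. The choice of Csf1r set KO against control libraries, so its control values were not independent of the choice. Differences among the control genotypes were no part of the rule. Csf1r did not pass the test in Ctrl vs. WT (log2 fold change 0.06, standard error 0.15, adjusted p = 0.819 from edgeR), CreCtrl vs. WT (0.25, 0.15, adjusted p = 0.333 from edgeR) or CreCtrl vs. Ctrl (0.18, 0.16, adjusted p = 0.693 from edgeR). The first of these turned to -0.06 with RLE factors and to -0.11 without Ctrl replicate 1. Csf1 was lower in both other genotypes than in WT, with log2 fold changes of -1.85 in Ctrl (adjusted p = 0.000459 from edgeR) and -1.36 in CreCtrl (adjusted p = 0.00585 from edgeR). The second call was lost without CreCtrl replicate 1 (-1.26, adjusted p = 0.1 from edgeR). Csf1 in CreCtrl vs. Ctrl (0.49, adjusted p = 0.466 from edgeR) did not pass. Il34 had log2 fold changes of -2.12 in Ctrl (adjusted p = 0.111 from edgeR) and -2.09 in CreCtrl (adjusted p = 0.152 from edgeR) against WT, neither of which passed, while DESeq2 called both, and 0.03 in CreCtrl vs. Ctrl (adjusted p = 0.995 from edgeR). Called in either direction were 20.2% of 17662 genes in Ctrl vs. WT, 12% in CreCtrl vs. WT and 1.69% in CreCtrl vs. Ctrl. With library size alone, 1505 genes were called higher and 1730 lower in Ctrl vs. WT, against 2367 and 1194 with TMM. Fibroblast markers summed to 8202 to 8769 CPM in WT and 1305 to 2844 CPM in the other controls, and genotype and set cannot be told apart here. In order of mean level, Csf1 went from WT (91.3 CPM, SD 21.1, n = 3) over CreCtrl (35.6 CPM, SD 3.32, n = 2), Ctrl (25.4 CPM, SD 6.09, n = 2) and KO of the WT set (22.1 CPM, SD 6.73, n = 3) to KO of the Ctrl set (13.5 CPM, SD 1.22, n = 2) and KO of the CreCtrl set (11.6 CPM, SD 0.86, n = 2), and of these neighbours only Ctrl and KO of the WT set overlapped.

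Whether the KO effect on the ligands differed between sets was tested by interaction contrasts in the same fit. For Csf1 the effect in the WT set minus that in the Ctrl set was -1.14 on the log2 scale (standard error 0.37, adjusted p = 0.0951 from edgeR), where 5.15% of genes were called. This difference did not pass, but DESeq2 called it (-1.29, adjusted p = 0.0269). The other contrasts of Csf1 were -0.43 between the WT and CreCtrl sets (adjusted p = 0.664 from edgeR), where 1.49% of genes were called, and 0.71 between the Ctrl and CreCtrl sets (adjusted p = 0.636 from edgeR). In that last contrast edgeR called 0% of genes, with 1545 at an unadjusted p under 0.05, and DESeq2 called 14 higher and 101 lower. For Il34 the contrasts were -0.50, -1.86 and -1.36 for these pairs of sets, without a call (adjusted p = 0.887, 0.516 and 0.808 from edgeR). The last of them was -0.36 without KO replicate 2 of the Ctrl set and -8.12 without KO replicate 1, where the lone library left has 0 counts.

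Around the receptor and its ligands, 45 other genes in 6 lists were followed. The leukocyte signalling genes, the transcription factors of the macrophage lineage and the other colony stimulating factors with their receptors belong largely to the myeloid cells whose lower transcripts were used to choose Csf1r. Those 3 lists are given below as a description, without a test. Of the 22 genes in the other 3 lists, 21 had enough counts to be tested over the 3 sets, of which 1 was called higher and 6 lower, against 11% of all genes called higher and 16.8% called lower. In KO vs. WT, 3 of 22 were called higher and 9 lower (14.1% and 17.6% of all genes). In KO vs. CreCtrl, 0 of 22 were called higher and 5 lower (3.46% and 12.2% of all genes), and in KO vs. Ctrl 0 of 21 in either direction (4 lower with DESeq2). Without KO replicate 2 of the Ctrl set the fit over the 3 sets called 3 higher and 7 lower, and without Ctrl replicate 2 it called 2 higher and 7 lower. With library size alone it called 0 higher and 8 lower.

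The alternative receptors of interleukin 34, Ptprz1 and Sdc1, and Adam17, the protease that sheds Csf1r and colony stimulating factor 1 from the cell surface, gave 0 calls of 3 over the 3 sets (median log2 fold change -0.36, against 0.01 over all genes). Adam17 was called lower in KO vs. WT (-0.80). Ptprz1 had 0.74 to 9.62 CPM in KO libraries and 1.78 to 18.0 CPM in controls. Of 9 broadly expressed signalling genes, Src, a tyrosine kinase recruited to active growth factor receptors, was called higher (0.65, from 76.9 to 159 CPM in controls to 155 to 211 CPM in KO libraries) and Cbl, the ubiquitin ligase that marks activated Csf1r for degradation, was called lower (-0.64). Src lost its call with library size alone (0.41), with at least 10 counts in every library, and without WT replicate 1 (0.52) or 2 (0.55). Cbl lost its call without KO replicate 2 of the WT set (-0.53). The other 7, Akt1 (-0.35) among them, were not called over the 3 sets, and the median of the 9 was -0.01.

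The 10 signalling genes of leukocytes had a median log2 fold change of -2.39 over the 3 sets, from -2.79 to -0.06. Tyrobp, the adaptor DAP12 of myeloid receptors, had 13.9 to 105 CPM in controls and 1.28 to 58.3 CPM in KO libraries. Syk, the kinase that docks on such adaptors, had 10.8 to 47.3 CPM in controls and 1.61 to 20.3 CPM in KO libraries. The lipid phosphatase gene Inpp5d (-2.61) and the phospholipase gene Plcg2 (-1.33) also had lower levels in KO libraries. The 7 transcription factors of the macrophage lineage had a median of -2.44, from -3.32 to -1.74. Runx1, which acts early in the blood lineages, had 12.1 to 74.4 CPM in controls and 0.140 to 13.01 CPM in KO libraries, and Cebpa, a factor of early myeloid cells, had 11.2 to 53.0 and 3.10 to 22.1 CPM. In KO vs. Ctrl, where KO replicate 2 stood apart with a high sum of myeloid markers, the medians of both lists were -0.60 and -1.16. Not every myeloid marker was high in that library. Lyz2 had 1370 CPM of the sum of 2124 CPM, while Cd163, Lyve1, Pf4 and F13a1 had 0.835 CPM or less, below both Ctrl libraries.

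The other class III receptor tyrosine kinases and their ligands differed among themselves. Pdgfra (-3.72) and Pdgfrb (-2.01), the platelet-derived growth factor receptors of fibroblasts and pericytes, and the ligand genes Kitl (-3.67) and Pdgfb (-1.61) were among the 5 of 9 tested genes called lower over the 3 sets. Kit, the receptor of stem cell factor on mast cells and melanocytes, had 27.3 to 38.1 CPM in KO libraries and 11.7 to 64.1 CPM in controls. It was called higher in KO vs. WT (1.13) and not over the 3 sets (0.59, adjusted p = 0.0765 from edgeR), although it was called there without Ctrl replicate 2 (0.86) or KO replicate 2 of the Ctrl set (0.74). Pdgfa was called higher in KO vs. WT (0.60). Flt3 had too few counts to be tested over the 3 sets. Of the other colony stimulating factors and their receptors, 5 had enough counts for a fit (median -2.61, as a description). Csf2ra and Csf2rb, the receptor chains for granulocyte-macrophage factor, had log2 fold changes of -0.94 and -2.40, and Csf3r, the receptor of the granulocyte factor, had -2.61. In KO libraries Csf2ra had 15.5 to 59.9 CPM, overlapping 31.0 to 77.2 CPM in controls. Reads shared between Csf2rb and Csf2rb2 (-2.63), which are near copies, make both uncertain. Csf3, the gene of the granulocyte factor, had 3.95 CPM or less in every library. Csf2, the gene of granulocyte-macrophage factor, had 4 counts or fewer in every library and was not tested.

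Next to Csf1r on chromosome 18, Pdgfrb ends 15536 bases before its start and was called lower, while Hmgxb3 overlaps 873 exon bases of Csf1r on the other strand. Hmgxb3 had 51.1 to 73.8 CPM in KO libraries and 47.0 to 61.1 CPM in controls, with a log2 fold change of 0.14 over the 3 sets that did not pass (adjusted p = 0.197 from edgeR) and turned to -0.10 with library size alone. With an unknown strand setting, reads in the overlap cannot be told apart, but Csf1r had at least 450 CPM in every library. Beside Csf1 lie Ahcyl1 (0.46, adjusted p = 0.00326 from edgeR, with a fold under 1.5) at a distance of 44487 bases and Eps8l3, which had 1.03 CPM or less in every library. Beside Il34 lie Mtss1l (0.19, adjusted p = 0.235 from edgeR) at 428 bases and Sf3b3 (-0.23, adjusted p = 0.0864 from edgeR) at 4314 bases. Neither neighbour of Il34 nor Ahcyl1 was called.

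The genes most like each of the 3 were sought by Pearson's r of log2 CPM over the 14 libraries among 11617 genes with a mean of at least 5 CPM. For Csf1r they were Pef1 (r = 0.974), Mrps7 (0.963), Cd320 (0.958), Wdr6 (0.957) and Atp6v0e (0.956). Within the 7 KO libraries these 5 had r of 0.671 to 0.874 with Csf1r, and within the 7 controls 0.784 to 0.963. The RPE monocarboxylate transporter gene Slc16a8 came at rank 26 (0.929), and no gene of the marker lists ranked higher. All 9 RPE markers that passed the limit on level, Best1 not among them, had a positive r with Csf1r (median 0.799), and 0 of 13 myeloid markers did (median -0.741). Csf1r was chosen for staying abundant where myeloid transcripts were lower, so these signs follow in part from the choice. Within KO and within control libraries, Csf1r had r of 0.478 and 0.570 with the RPE sum. With the myeloid sum it had -0.361 and -0.429. For Csf1 the most like were Ecm2 (0.986), C1s1 (0.981), Serpine2 (0.978), Carhsp1 (0.978) and Pyroxd2 (0.975), and for Il34 Pdzd4 (0.953), H19 (0.952), Ltbp2 (0.937), Tmem158 (0.927) and Clec3b (0.912). The fibroblast markers had a median r of 0.927 with Csf1 and 0.733 with Il34. Between the 3 genes, r was 0.781 for Csf1 and Il34 (0.259 within KO, 0.914 within controls), -0.729 for Csf1r and Csf1 and -0.628 for Csf1r and Il34. These libraries fall into groups, and r over all 14 includes the differences between the groups.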

How the data were processed

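RNA was measured in 14 RPE libraries (stranded poly(A) kit, paired-end reads, 1 mouse each). The authors aligned reads to GRCm38 with STAR and deposited raw counts of reads per Ensembl gene. The submitters' processing notes name bcl2fastq 2.19, STAR 2.5.2, Cufflinks 2.1.1 and HTSeq 0.11.2. The strand setting and annotation release of the counting are not given in the sources used here, and they bear on genes that overlap on opposite strands. The table has 0 columns without a sample. Groups followed the sample titles, and titles and descriptions, by their style, gave the set to which a KO library belongs. Replicates are separate mice, and a chi-square comparison of the libraries within each group found no pair within sampling noise. Pairs from different groups were not compared. Of 42687 genes, 42329 were found in GENCODE M21, which gave names, positions and merged exon lengths.

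Counts were tested with edgeR's quasi-likelihood test (TMM, filterByExpr, Benjamini-Hochberg over all genes tested), in each set, over the 3 sets with the set as covariate, and as 6 groups. The test was first run on simulated data. Alternatives were DESeq2, RLE factors, library size alone, every gene with at least 1 count, at least 10 counts in every library, the replicate block, and each library left out. The log2 CPM for likeness had a prior count of 2. The members, lists and naming rules were chosen with earlier results of these data known. Named were the 3 genes, Clic4, Lyz2, the RPE markers, the nearest protein-coding gene on each side, up to 4 called genes per pathway list and direction by mean CPM (otherwise 2), 3 genes per marker list, and the 5 genes most like each member. Others, such as Sdc1, Spi1, Ptprz1, Flt3, Csf2, Csf3 and markers at 0, were named after their values were seen. Results of some genes that the rule names are not reported here. The software was Python 3.11.15 with pandas 2.3.3 and numpy 2.4.6, and R 4.3.3 with DESeq2 1.42.0, limma 3.58.1 and edgeR 4.0.16.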

Additional observations from a re-analysis of the deposited data

Results flagged for a closer look

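The KO effect differed between the WT and Ctrl sets, by an interaction contrast of edgeR's quasi-likelihood test over all 14 libraries, for 3 of 44 pathway genes tested and 3 of the 10 RPE markers. Over all genes, 5.15% of 17662 were called in that contrast. The 44 genes include the 3 lists given as a description, and the 3 genes called lie in the other lists. On the log2 scale the effect in the WT set minus that in the Ctrl set was 0.93 for Src (standard error 0.23, adjusted p = 0.0365 from edgeR), -2.06 for Pdgfrb (0.44, adjusted p = 0.021 from edgeR) and 4.74 for Sdc1 (1.03, adjusted p = 0.0228 from edgeR). Sdc1, named after its values were seen, was at 310 CPM in Ctrl replicate 2. edgeR called 0 pathway genes in this contrast without that library, without KO replicate 2 of the Ctrl set or without KO replicate 2 of the WT set, and DESeq2 called 12 with all libraries. For the RPE markers the difference was 2.18 for Lrat (0.37, adjusted p = 0.0117 from edgeR), 1.82 for Rgr (0.31, adjusted p = 0.0117 from edgeR) and 1.17 for Otx2 (0.23, adjusted p = 0.0166 from edgeR).

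Between the WT and CreCtrl sets the effect differed for 4 of the 10 RPE markers, where 1.49% of 17662 genes were called. The difference was 1.60 for Rgr (0.31, adjusted p = 0.0303 from edgeR), 1.85 for Ttr (0.38, adjusted p = 0.0356 from edgeR), 1.23 for Rdh5 (0.28, adjusted p = 0.0462 from edgeR) and 1.12 for Otx2 (0.23, adjusted p = 0.0358 from edgeR). The contrasts of Csf1 and Il34 did not pass in either comparison, and that of Csf1r was not read, because its KO values had been used to choose it.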

How the results depend on the processing

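Against WT, Ctrl, CreCtrl and all controls together, Csf1 and Il34 kept direction and call under every alternative that gave a value, from -1.88 to -1.52 for Csf1 and -2.59 to -1.96 for Il34 over the 3 sets. Il34 had no value with at least 10 counts in every library where KO replicate 2 of the Ctrl set took part, and depth limits this gene most. For the values below the cause was not tested. Genes called in KO vs. Ctrl (0) were 647 with 6 groups, 1658 with every gene of at least 1 count, 1111 with DESeq2 and 113 with the replicate block. In KO vs. CreCtrl (2498) they were 703 with 6 groups, 4287 with every gene and 3762 with the replicate block. Every gene with at least 1 count gave 3266 in CreCtrl vs. WT (2115) and 1384 in CreCtrl vs. Ctrl (299, 849 with DESeq2). Interaction calls between the WT and Ctrl sets (909) were 596 with RLE, 548 with library size alone, 2262 with every gene and 1630 with DESeq2. Between the WT and CreCtrl sets (264) they were 1102 with every gene, 487 with at least 10 counts and 901 with DESeq2, and between the Ctrl and CreCtrl sets (0) 331 higher and 552 lower with every gene and 14 higher and 101 lower with DESeq2. Genes called in all 6 pathway lists in KO vs. Ctrl (0) were 3 with 6 groups, 9 with every gene and 6 with DESeq2. In KO vs. CreCtrl (25) they were 7 with 6 groups. Over the 3 sets (26) they were 16 of 32 tested with at least 10 counts in every library, against 3123 of 11824 genes. These counts include the 3 lists given as a description, whose lower levels follow in part from the choice of Csf1r. They are no test of those lists. In the other 3 lists the calls in KO vs. Ctrl (0) were 2, 5 and 4, all lower, in the same order of settings. In KO vs. CreCtrl (5 lower) they were 4 lower with 6 groups. Over the 3 sets (1 higher, 6 lower) they were 0 higher and 5 lower of 20 tested with at least 10 counts. Il34 was called in Ctrl vs. WT (-2.09 with every gene, -2.25 with DESeq2) and CreCtrl vs. WT (-2.08 and -2.19), and the Csf1 difference between the WT and Ctrl sets was called with every gene (-1.12) and DESeq2 (-1.29). Csf1r in Ctrl vs. WT turned to -0.059 with RLE, -0.06 with DESeq2, -0.16 with library size alone and -0.084 with at least 10 counts. With library size alone Hmgxb3 turned to -0.10 and Mtss1l to -0.0497 over the 3 sets, and the mean of Csf1r over KO libraries was 684 CPM.

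Leaving out 1 library gave 0 to 512 calls in KO vs. Ctrl (Ctrl replicate 1; 26 without Ctrl replicate 2) and 0 to 3 pathway genes, 1147 to 4819 in KO vs. CreCtrl (CreCtrl replicates 2 and 1; 1279 without KO replicate 2), 1549 to 3822 in Ctrl vs. WT (lowest without Ctrl replicate 2), 509 to 2327 in CreCtrl vs. WT (lowest without CreCtrl replicate 1) and 129 to 1371 in CreCtrl vs. Ctrl (CreCtrl replicate 1 and Ctrl replicate 1). Interaction calls ran from 100 to 1459 (KO replicate 2 of the Ctrl set and Ctrl replicate 1), 0 to 432 (either KO replicate of the CreCtrl set and Ctrl replicate 1) and, for the last pair of sets, 0 to 35 higher and 0 to 154 lower (Ctrl replicate 1). Csf1 ran from -1.503 to -1.17 in CreCtrl vs. WT and from -1.40 (called without KO replicate 1 of the WT set) to -0.96 in the difference between the WT and Ctrl sets. Il34 ran from -2.41 to -1.82 in Ctrl vs. WT and -2.41 to -1.79 in CreCtrl vs. WT, called without either KO replicate of the Ctrl set, from -0.31 to 0.29 in CreCtrl vs. Ctrl, and from -1.5 to 6.26 in the difference between the WT and Ctrl sets, the last against a lone library at 0 counts. The uncalled values of Il34 ran from -9.21 to -1.32 in KO vs. Ctrl and from -8.12 to -0.36 in the difference between the Ctrl and CreCtrl sets (KO replicates 1 and 2 of the Ctrl set left out), and that of Csf1 from -0.69 to -0.24 between the WT and CreCtrl sets (KO replicate 1 and WT replicate 2 of the WT set). The ratio of Il34 to Csf1 ran from -2.07 to -0.12 (KO replicates 1 and 2 of the Ctrl set). Csf1r in Ctrl vs. WT ran from -0.11 to 0.23.

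Same-numbered libraries deviated together with correlations of -0.012, 0.037 and 0.212 for WT, -0.026 for Ctrl and 0.198 for CreCtrl and their KO mice. The same-numbered KO library was the closest for WT replicate 3 and both CreCtrl replicates, and not for the others. In groups of 2 libraries both correlations are equal by construction, so this check cannot settle whether the numbers pair the libraries. With the replicate block the fit over the 3 sets called 3870 genes, with Csf1 at -1.63 and Il34 at -2.34, and no call of either gene changed.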
